A study of Mus musculus with 2 samples.

Results

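Transcripts of 10 genes that encode coat proteins, fusion proteins and lipases of the lipid droplet were followed in cultured mouse hepatocytes. They were taken by symbol from a table of 36808 genes: the perilipins Plin2, Plin3, Plin4 and Plin5, the CIDE genes Cideb and Cidec, the patatin-like lipase genes Pnpla2 and Pnpla3, and the lipase regulators Abhd5 and G0s2. The cells were primary hepatocytes of C57Bl6 mice. One culture was given 1 µM GW3965, a drug-like compound that activates LXRα and LXRβ, the nuclear receptors for oxysterols, and the other its solvent DMSO. William E medium, fetal bovine serum, insulin and dexamethasone were common to both, so the DMSO cells were under hormones as well. Each group had 1 library, so no difference below has a replicate check, and effects of the ligand and of anything else that differed between the cultures cannot be told apart. The second library is called GL in the table and was taken to be GW3965, the only partner of DMSO among the labels.

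Lipid droplets store triglyceride and sterol esters under a single phospholipid layer. Perilipins coat that surface and limit the access of lipases, CIDE proteins enlarge droplets by passing lipid between them, and in hepatocytes CIDEB also takes part in loading lipid onto very low density lipoprotein. Triglyceride is opened by adipose triglyceride lipase, the product of Pnpla2, which ABHD5 activates and G0S2 inhibits. In the liver PNPLA3 sits on droplets, and its gene is known to follow feeding and the lipogenic factor SREBP-1, which is encoded by the LXR target Srebf1.

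Values are FPKM, fragment counts scaled for transcript length and for the depth of the library, which can be compared between genes. The low values of the table place the libraries on scales of about 63172700 (DMSO) and 78496700 (GW3965) fragments. Abca1, the LXR-regulated sterol exporter, was at 14.6 FPKM in DMSO against 81.1 in GW3965, and Srebf1 was at 37.6 and 100.4. In the authors' deposited table Abca1 is called (q = 4.67e-06) and Srebf1 is not (q = 0.709). Of 5 hepatocyte markers at 1 FPKM or more, 3 were lower and 2 higher in GW3965, all within 1.5-fold. With 1 FPKM added to both values, 97.7% of all genes at 1 FPKM or more lay within 1.5-fold as well. Serpina1c, a secreted protease inhibitor, was at 150 FPKM in DMSO against 114 in GW3965, and Hnf4a, a liver transcription factor, at 49.4 against 37.4. Ttr was at 205 against 189 FPKM and Apoa1 at 598 against 660, and Cps1, a urea cycle enzyme, was higher by 0.31 on a log2 scale with 1 FPKM added. Albumin was at 7244 FPKM in DMSO, and its locus was marked as having too many fragments to be measured. Tat, an amino acid enzyme of mature hepatocytes, was lower, at 0.962 FPKM in DMSO against 0.447 in GW3965. The part of these marker levels in the results was not tested.

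Most of the 10 transcripts were at nearly the same level in both libraries, and 2 stood apart. Pnpla3 was 3.75-fold and G0s2 1.85-fold higher in the GW3965 library, as plain ratios of FPKM. Among the other 8, Cidec alone lay beyond 1.5-fold, at 0.623 of its DMSO level, and it was a low transcript. Plin2 was by far the most abundant of the 10 in both libraries. Among 14948 genes that the authors tested and that were above 0 in both libraries, 3.97% had a plain ratio at least 1.5-fold higher and 6.3% one at least 1.5-fold lower.

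**Figure D1:**
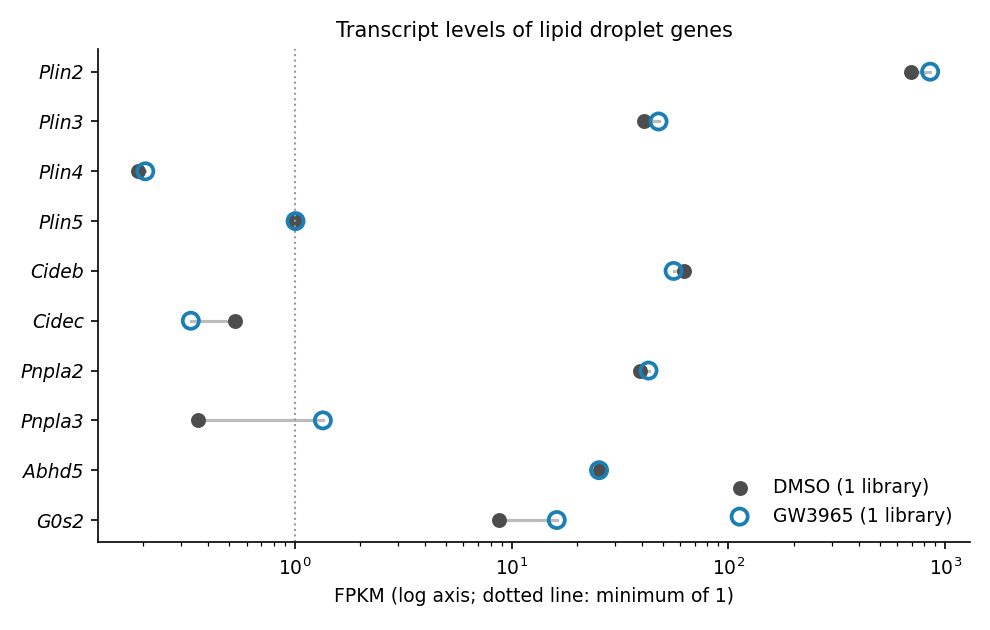
FPKM of the 10 genes on a log axis, with filled points for the DMSO library and open circles for the GW3965 library, 1 library each. Levels span from 0.189 for Plin4 to 852 for Plin2, and the points lie visibly apart for Pnpla3, G0s2 and Cidec.

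A scale with 1 FPKM added to both values before the ratio is taken keeps low genes from dominating and understates their differences. On it, as log2 of GW3965 over DMSO, G0s2 stood at 0.82 and Pnpla3 at 0.79. Of the 8 members with 1 FPKM or more in either library, these 2 were higher by 1.5-fold or more and 0 were lower by as much. Pnpla3 reached that minimum through its GW3965 value only, so the count over these 8 is a description. Of all 11796 genes that reached the minimum, 1.02% were higher and 1.33% lower by 1.5-fold or more. The median was 0.17 over the 8 members, 0.07 over all 10 members without a minimum, and 0.01 over all genes at the minimum.

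The start regions of Pnpla3 and G0s2, the genes that stood apart, and of Plin2, the most abundant, are printed from RefSeq (GRCm38.p6), 5′ to 3′ on the gene's own strand. They run up to the transcript start, and bases that GENCODE places in an exon were left out. Capitals mark matches to any of 7 motifs searched on both strands.
Pnpla3, chr15:84167566-84167815, plus strand: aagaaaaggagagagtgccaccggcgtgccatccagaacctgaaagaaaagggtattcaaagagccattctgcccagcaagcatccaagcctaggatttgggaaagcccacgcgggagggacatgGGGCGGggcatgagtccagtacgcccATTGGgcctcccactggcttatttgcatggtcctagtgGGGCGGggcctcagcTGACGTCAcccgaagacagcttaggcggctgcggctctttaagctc
G0s2, chr1:193273218-193273438, minus strand: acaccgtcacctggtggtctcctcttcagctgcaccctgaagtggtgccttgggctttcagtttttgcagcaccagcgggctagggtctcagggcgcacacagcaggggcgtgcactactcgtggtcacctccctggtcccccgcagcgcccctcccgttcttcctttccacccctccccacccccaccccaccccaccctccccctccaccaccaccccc
Plin2, chr4:86670061-86670309, minus strand: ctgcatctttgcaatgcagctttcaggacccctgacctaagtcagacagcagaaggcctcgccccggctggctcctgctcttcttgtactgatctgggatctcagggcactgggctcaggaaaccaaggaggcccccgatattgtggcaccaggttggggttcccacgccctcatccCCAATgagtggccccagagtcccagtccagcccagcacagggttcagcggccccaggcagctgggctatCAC

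The search covered 300-base windows that run past the transcript start, 12 of them for the 10 members and 32851 in all. The LXR repeat DR4 was searched as AGGTCA repeated in the same direction with 4 free bases between the copies, and the PPAR repeat DR1 as the same copies 1 base apart. The sterol regulatory element of SREBP was searched as TCACNCCAC. In these exact letters 0 member windows held any of the 3, against 0.0152%, 0.0396% and 1.24% of all windows. With shares this low, 0 among 12 windows does not tell whether these genes have sites for LXR, PPAR or SREBP. The cAMP response element TGACGTCA lies in the Pnpla3 stretch from 46 to 39 bases before the start, in no other member's window and in 1.79% of all windows. The same stretch holds 2 GC boxes and an inverted CCAAT box. CCAAT was found in 5 members (Plin2, Plin3, Plin4, Plin5 and Pnpla3) and in 37.4% of all windows. The GC box, written GGGCGG, was found in 8 members and in 35.7% of windows, and that of G0s2 lies in the bases left out, so its printed stretch holds no match. The E-box, written CACGTG, occurs in 7.15% of all windows and among the members across the start of Plin2, where the last capitals are its first letters. The motifs do not overlap in the stretches printed, and a match is a description of letters in a short window.

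Plin2 encodes the perilipin found on droplets of nearly all cells (ENSMUSG00000028494, chromosome 4, 86294290 to 86315964, mm9). It was at 697 FPKM in DMSO against 852 in GW3965, or about 76289 and 115935 fragments. The ratio of 1.22 had an exact 95% interval of 1.21 to 1.23 from counting alone, which leaves out any difference between cultures. Counting error was small beside this difference, but how far 2 cultures of one treatment would differ is not known, and the authors' deposited table gives p = 0.427. Plin2 was number 134 of the tested genes by level in DMSO, within the top 0.896%. Pieces of its sequence recur in Gm12551, which holds 5.50% of its 25-base words and was listed at 0 in both libraries.

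Plin3, the perilipin that moves between cytosol and nascent droplets, was at 41.0 FPKM in DMSO against 47.6 in GW3965, a ratio of 1.16 (counting interval 1.13 to 1.19). It lies on chromosome 17 (ENSMUSG00000024197, 56418385 to 56429934, mm9). Plin5, the perilipin of oxidative tissues that ties droplets to mitochondria, lies on the same chromosome (ENSMUSG00000011305, 56251024 to 56257019). Plin5 was at 1.00 FPKM in DMSO against 1.01 in GW3965, with a ratio of 1.01 and an interval of 0.783 to 1.30. Next to it lies Plin4, a perilipin of adipose tissue and muscle (ENSMUSG00000002831), in a locus of the table that also holds Hdgfrp2 (56219057 to 56249225). Plin4 was at 0.189 FPKM in DMSO against 0.205 in GW3965 (ratio 1.08, interval 0.779 to 1.51), on about 67 and 90 fragments. A difference of the size seen for Plin2 would lie within the counting interval of either of these low genes and was not detectable at this depth. Plin1, the perilipin of adipocytes and not among the 10, was at 0.00899 FPKM in DMSO and listed at 0 in GW3965.

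The makeup of the perilipin transcripts was nearly the same in the 2 libraries. Plin2 made up 94.3% of the summed FPKM of Plin1 to Plin5 in DMSO and 94.6% in GW3965, and Plin3 5.55% and 5.29%. The summed level was 739 FPKM in DMSO against 901 in GW3965. Plin2 exceeded Plin5 by 695 times in DMSO and 845 times in GW3965.

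**Figure D2:**
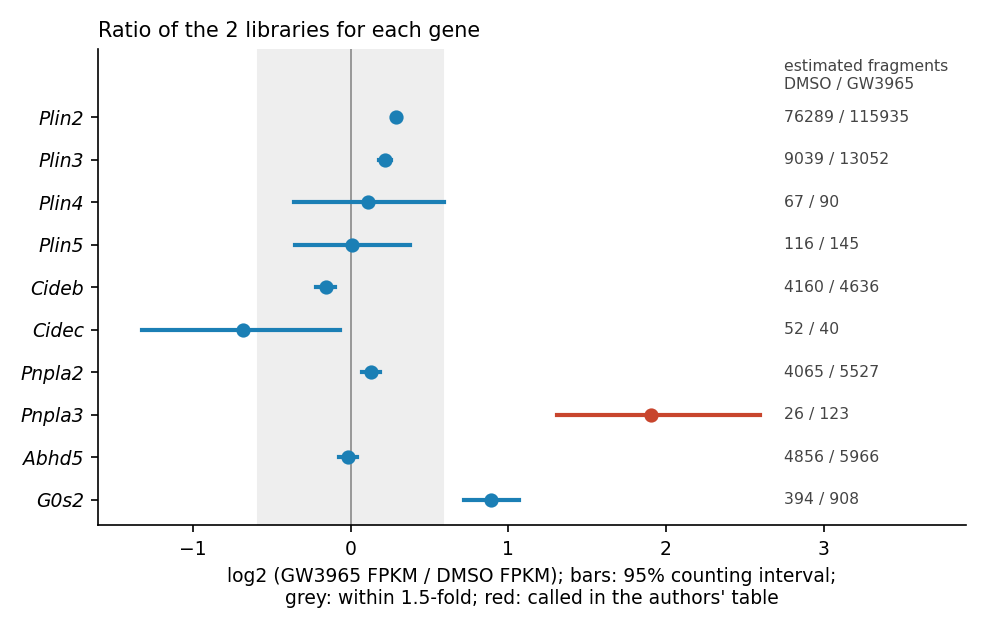
Log2 ratio of FPKM for each gene, with the exact 95% interval from counting as a bar and the estimated fragments of both libraries at the right, where grey marks the range within 1.5-fold and red the gene called in the authors' table. The intervals of Pnpla3 and G0s2 lie wholly above the grey range, that of Cidec crosses its lower edge, and that of Plin4 reaches its upper edge.

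Cideb (ENSMUSG00000022219, chromosome 14, 56364530 to 56377295, mm9), the CIDE gene of hepatocytes, was at 62.3 FPKM in DMSO against 55.9 in GW3965. Its ratio of 0.897 had a counting interval of 0.860 to 0.935, and the authors' deposited table gives p = 0.484. Its value is uncertain, because 76.3% of its annotated exon bases overlap exons of Nop9 on the opposite strand and no source used here says how strand was handled. Nop9, listed as 2610027L16Rik with the same locus, was at 31.6 and 32.3 FPKM.

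Cidec (ENSMUSG00000030278, chromosome 6, 113374628 to 113385754, mm9), which makes the large droplets of white fat cells and is induced in fatty liver, was at 0.532 FPKM in DMSO against 0.332 in GW3965. It rested on about 52 and 40 fragments, and its ratio of 0.623 had a counting interval of 0.399 to 0.953. Ratios scatter widely among low genes: of 4427 tested genes below 2 FPKM in both libraries, 17.1% had a plain ratio at least 1.5-fold lower and 10.1% one at least 1.5-fold higher. A ratio of the size of that of Cidec was therefore common at its level, and the authors' deposited table gives p = 0.338. Cidea, the CIDE gene of brown fat, was at 2.34 FPKM in DMSO against 2.77 in GW3965. Cideb made up 95.6% of the summed FPKM of the 3 CIDE genes in DMSO and 94.7% in GW3965. These shares rest on the Cideb value, which its overlap with Nop9 leaves uncertain.

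Pnpla2, which encodes adipose triglyceride lipase (ENSMUSG00000025509, chromosome 7, 148641097 to 148646642, mm9), was at 39.1 FPKM in DMSO against 42.8 in GW3965. Its ratio was 1.09 with a counting interval of 1.05 to 1.14, and the authors' deposited table gives p = 0.529.

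Pnpla3, a lipase and acyltransferase of droplets (ENSMUSG00000041653, chromosome 15, 83998246 to 84019942, mm9), was at 0.360 FPKM in DMSO against 1.35 in GW3965. These levels correspond to about 26 and 123 fragments, and the ratio of 3.75 had a counting interval of 2.48 to 6.06. By plain ratio it was number 49 from the highest among the 14948 tested genes. It belongs to the 4427 tested genes below 2 FPKM in both libraries, where ratios scatter widely and 10.1% were at least 1.5-fold higher. That share is for 1.5-fold, and the share of these low genes that reached the ratio of Pnpla3 was not counted. In the authors' deposited table Pnpla3 has p = 1.75e-08 with q = 1.76e-05 and is called, alone among the 10 members. That table calls 0.285% of 15090 genes tested, 0.166% of them as higher, from a test on the reads of 2 libraries that compares those libraries and not the conditions. The predicted gene Gm49513 shares 6.78% of the annotated exon bases of Pnpla3 on the same strand, so some of its reads cannot be assigned with certainty. With 5 FPKM added in place of 1, several times the level of Pnpla3, its log2 ratio was 0.24, and with 0.1 FPKM added it was 1.66.

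Abhd5, the coactivator of adipose triglyceride lipase (ENSMUSG00000032540, chromosome 9, 122260726 to 122290642, mm9), was at 25.6 FPKM in DMSO against 25.3 in GW3965. Its ratio of 0.989 had a counting interval of 0.952 to 1.03, and 950 of its annotated exon bases overlap A730085K08Rik on the opposite strand.

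G0s2, which encodes the small inhibitor of the same lipase (ENSMUSG00000009633, chromosome 1, 195098355 to 195099382, mm9), was at 8.72 FPKM in DMSO against 16.2 in GW3965. These levels are close to 394 and 908 fragments, and the ratio of 1.85 had a counting interval of 1.65 to 2.09. It was number 280 from the highest in the same order of tested genes. In the authors' deposited table G0s2 has p = 0.000870 with q = 0.168 and is not called. It was a transcript of middle level, since the median tested gene was at 7.04 FPKM in DMSO, and 0% of its 25-base words occurred in transcripts of another gene.

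**Figure D3:**
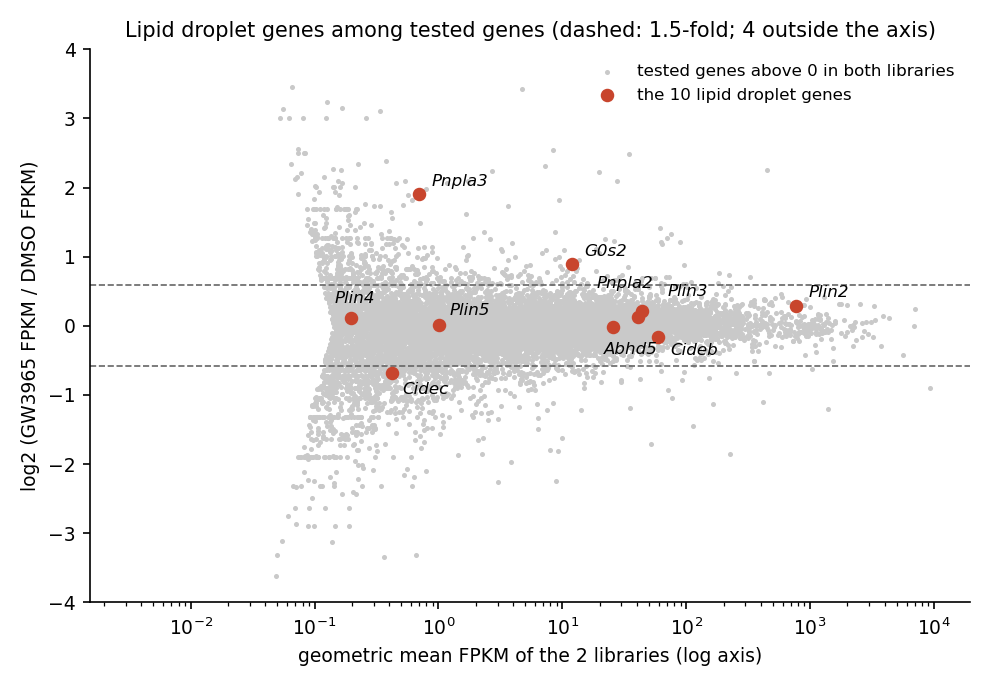
Log2 ratio of FPKM against the geometric mean FPKM of the 2 libraries for tested genes above 0 in both (grey) and the 10 lipid droplet genes (red), with 4 genes outside the axis. The spread narrows with level, Pnpla3 and G0s2 lie above most genes of their level, Cidec lies within the wide scatter of low genes, and Plin2 lies far to the right.

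The levels of the lipase and its regulators can be set against each other, since FPKM is per length. Lipase and coactivator stayed within 1.5-fold of their DMSO levels while the inhibitor G0s2 did not. Hilpda, which encodes another inhibitor of this lipase, was above G0s2 in both libraries, at 27.6 FPKM in DMSO and 32.4 in GW3965. The quotients to G0s2 leave it out and are not those of lipase to all inhibitors. Pnpla2 transcripts were 4.49 times those of G0s2 in DMSO and 2.65 times in GW3965. Abhd5 transcripts were 2.94 times those of G0s2 in DMSO and 1.57 times in GW3965. Pnpla2 stood to Abhd5 at 1.53 in DMSO and 1.69 in GW3965, so the activating pair kept a similar balance. Pnpla2 exceeded its relative Pnpla3 109 times in DMSO and 31.8 times in GW3965, so Pnpla3 was the minor of the pair in both libraries. These are quotients of transcript levels with 1 library each, and protein was not measured.

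The remaining patatin-like lipases were near their DMSO levels or barely detected. Pnpla6 and Pnpla7, which act on lysophospholipids, were at 7.32 and 6.66 FPKM and at 15.5 and 15.0 FPKM in DMSO and GW3965. Pnpla8, a phospholipase of membranes, was at 16.3 and 17.0. Pnpla1, known from skin, was at 0.00731 and 0.00588 FPKM, and Pnpla5, whose locus lies 44.6 kb from that of Pnpla3, was listed at 0 in DMSO and at 0.0166 in GW3965.

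A list of other lipase genes, Pnpla6, Pnpla7 and Pnpla8 included, held 21 at the minimum FPKM. With 1 FPKM added, their median log2 ratio was -0.02. By 1.5-fold or more, 0 were higher and 1 was lower, against 1.02% and 1.33% of all genes at the minimum. The lower one was Faah, a hydrolase of fatty acid amides, at 16.6 FPKM in DMSO against 10.6 in GW3965 (-0.60), and it has no call in the authors' deposited table. Ces2c, a carboxylesterase, stood at a log2 ratio of 0.34, Lpl, the lipoprotein lipase, at 0.32, and Lipe, the hormone-sensitive lipase that follows Pnpla2 in fat breakdown, at 0.26 (3.29 and 4.12 FPKM). Hilpda, listed as 2310016C08Rik, which like G0s2 encodes an inhibitor of adipose triglyceride lipase, was at 27.6 and 32.4 FPKM (0.23).

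Of 22 other droplet surface genes at the minimum, 1 was higher and 0 were lower by that size, with 0.07 as the median. Among all genes at the minimum, 1.02% were higher and 1.33% lower by as much. Acsl3, an acyl-CoA synthetase that sits on growing droplets, was at 12.6 FPKM in DMSO against 27.3 in GW3965 (1.06), with q = 0.00967 and a call in the authors' deposited table. The sterol synthesis enzymes Lss (0.48) and Nsdhl (0.41), also found on droplets, were within 1.5-fold. So was Hsd17b13, a droplet protein of hepatocytes, at 25.6 and 18.7 FPKM (-0.43).

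For 19 genes of droplet formation and triglyceride assembly at the minimum, the median was 0.08. By 1.5-fold or more, 2 were higher and 0 lower, against 1.02% and 1.33% of all genes at the minimum. The 2 higher ones were the phosphatidate phosphatases Lpin1, at 7.09 and 15.1 FPKM (0.99), and Lpin3, at 8.22 and 13.6 (0.67). The authors' deposited table calls Lpin1 with q = 6.83e-06 and does not call Lpin3. Gpam, which starts glycerolipid synthesis, stood at 0.43 and Dgat2, which ends triglyceride synthesis, at -0.31.

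Genes of very low density lipoprotein assembly stayed within 1.5-fold, all 15 at the minimum, with a median of 0.00. So did 97.7% of all genes at the minimum, so this does not set the list apart. The ratios farthest from 0 were those of Pla2g12b at -0.52, Apobec1 at 0.36, Tm6sf2 at -0.35 and Mttp, the lipid transfer protein, at -0.30. A list drawn around the regulation of lipolysis held 21 genes at the minimum. It was broad and also took in the lipogenic factor gene Srebf1 and the LXR gene Nr1h3. By 1.5-fold or more, 2 were higher and 0 lower, against 1.02% and 1.33% of all genes at the minimum. The 2 were Srebf1, already given beside Abca1 above, at 1.39 and the ubiquitin ligase gene Rnf145 at 0.88. A role of either in lipolysis was not tested. The authors' deposited table calls neither, with q = 0.709 for Srebf1 and q = 0.182 for Rnf145. Foxo1 (0.27), which is known to raise Pnpla2, and Nr1h3 (-0.29), which encodes LXRα, followed in size, and the list's median was 0.04. Lipophagy is the breakdown of droplets by autophagy. Its 16 genes at the minimum also lay within 1.5-fold, as did that 97.7% of all genes, with a median of 0.07. Farthest from 0 were Sqstm1 at 0.37, Ehbp1 at -0.31, Rab7 at 0.18 and Dnm2 at 0.14.

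**Figure D4:**
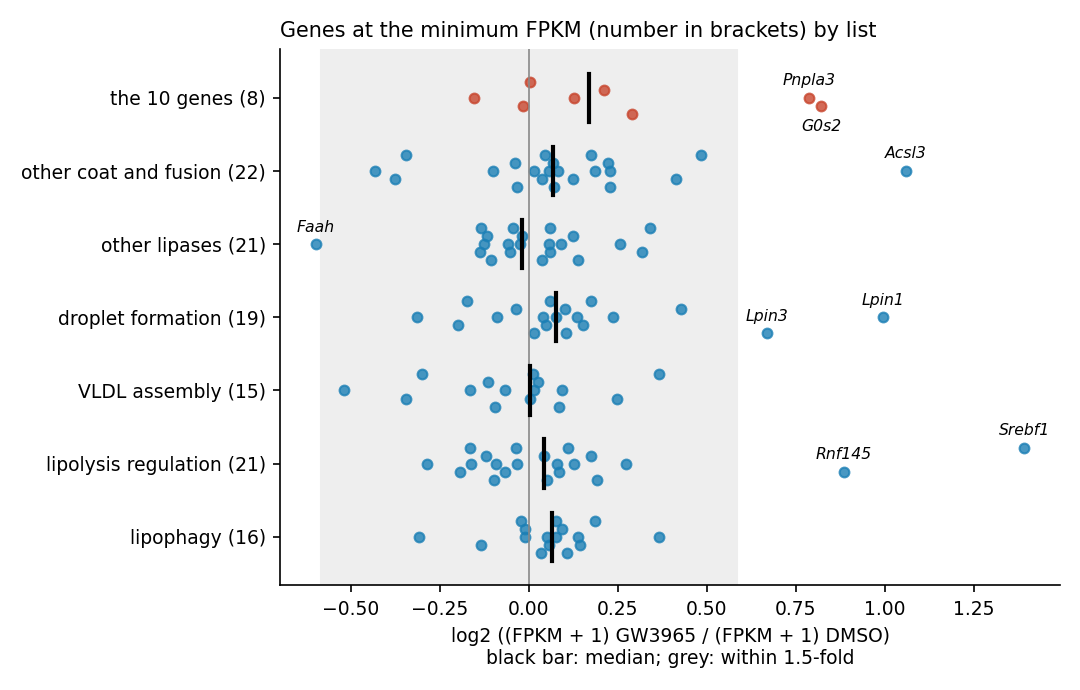
Log2 ratios with 1 FPKM added for the 10 genes and 6 companion lists, 1 point per gene at the minimum FPKM, with the list median as a black bar and the range within 1.5-fold in grey. All medians lie within the grey range, and outside it lie Pnpla3, G0s2, Acsl3, Lpin1, Lpin3, Srebf1 and Rnf145 above and Faah below.

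Cells other than hepatocytes also express these genes, since Plin2, Cidec, G0s2 and Pnpla2 are active in fat cells and Plin2 in macrophages and stellate cells too. Of 8 adipocyte markers, Cfd was listed at 0 in both libraries, and Adipoq (0 and 0.0112 FPKM), Lep (0.00510 and 0.00820) and Plin1 were near 0. The 4 at the minimum were Fabp4 (20.7 and 29.4 FPKM), Pparg (3.78 and 4.07), Lipe and Cidea, which other liver cells can express. The summed level of the adipocyte list was 30.1 FPKM in DMSO against 40.4 in GW3965. The 5 stellate cell markers at the minimum were all higher in GW3965 (median log2 ratio 0.21), led by Acta2 at 0.37, Col1a1 at 0.34, Pdgfrb at 0.21 and Des at 0.15, and the 6 listed summed to 16.5 FPKM in DMSO against 20.8 in GW3965. So were all 5 endothelial markers (median 0.27), led by Tek at 0.38, Cdh5 at 0.30, Pecam1 at 0.27 and Stab2 at 0.11, with sums of 119 and 142 FPKM. Macrophage markers went both ways: the sum of 6 was 194 FPKM in DMSO against 201 in GW3965, while the median of the 5 at the minimum was -0.10. Cd68 stood at 0.32, and Cd14 (-0.16), Emr1 (-0.14) and Csf1r (-0.10) below 0. Of 4 cholangiocyte markers, summing to 19.6 and 21.6 FPKM, the 2 at the minimum were Krt19 at 0.27 and Sox9 at 0.07. No marker at the minimum passed 1.5-fold with 1 FPKM added, and neither did 97.7% of all genes at the minimum. Pecam1 is marked as failed in the authors' deposited table. The part of these cells in the values of the 10 genes was not tested, and fewer cells of a type cannot be told apart from less RNA per cell.

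The surroundings of the 10 genes were examined after the values were seen. Within 100 kb of them the table lists 93 other genes, of which 58 were at the minimum. Of these 58, 1 was higher and 1 lower by 1.5-fold or more, against 1.02% and 1.33% of all 11796 genes at the minimum. The higher one was Lamb3, which encodes a laminin chain and lies 28768 bases from G0s2 at higher map positions (chromosome 1, 195128151 to 195170072, mm9), on the plus strand while G0s2 is on the minus strand. Lamb3 was at 6.31 FPKM in DMSO against 12.3 in GW3965, a ratio of 1.95 that was number 258 of the tested genes. For Lamb3 the authors' deposited table gives q = 0.00638 and a call. On the other side of G0s2, Hsd11b1, which regenerates active glucocorticoid, was at 42.9 and 46.3 FPKM.

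Around Pnpla3 the 2 neighbours at the minimum were within 1.5-fold of their DMSO levels. Samm50, a mitochondrial outer membrane gene whose locus begins 2720 bases beyond that of Pnpla3, was at 81.9 FPKM in DMSO against 83.0 in GW3965. Parvb, an adhesion gene, had a log2 ratio of 0.32. The lower gene among the 58 was Uhrf1, a DNA methylation and cell cycle factor 12809 bases from Plin3, at 11.2 and 6.62 FPKM.

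**Figure D5:**
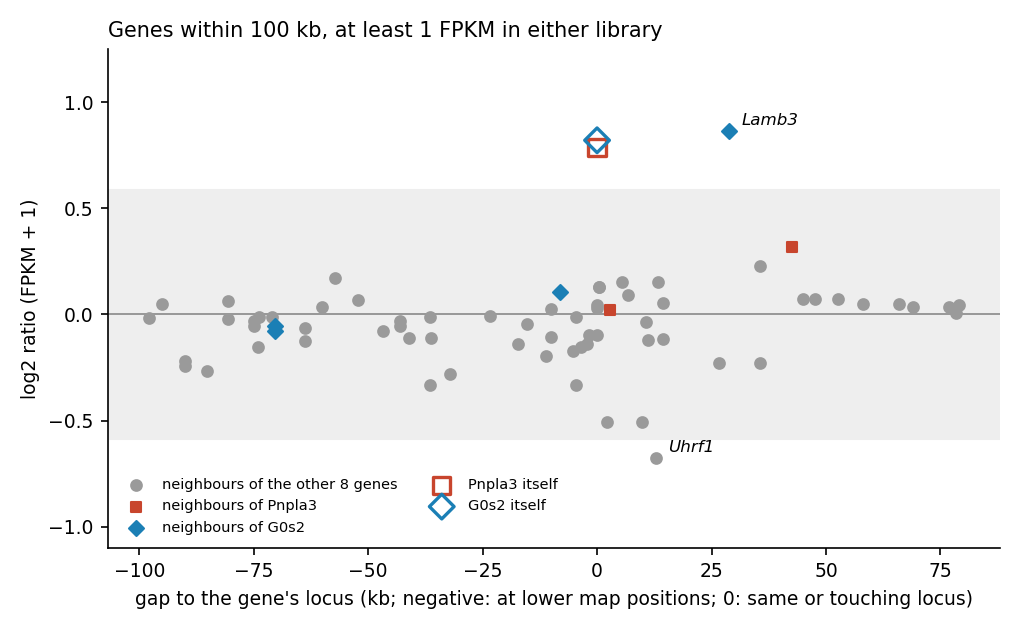
Log2 ratio with 1 FPKM added against the gap in kb to the locus of the lipid droplet gene, for neighbours at the minimum FPKM of G0s2 (diamonds), Pnpla3 (squares) and the other 8 genes (grey). A gene near more than 1 member is drawn for each, Lamb3 lies at 0.86, close to G0s2 itself at 0.82, and the neighbours of Pnpla3 lie within 1.5-fold.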

How the data were processed

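Per the labels' protocols, RNA of 1 DMSO and 1 GW3965 culture was made into TruSeq libraries. Per the submitters' processing notes reads were handled by the authors with Cuffdiff, Cufflinks 2.0.2, TopHat2 2.0.6 and CASAVA on NCBIM37, also named mm9. How strand was handled and how libraries were scaled is not given in the sources used here, nor is the number of animals. Deposited values are FPKM, per the file headers, with a p-value, a q-value and a test score per gene made by the authors. The score was not used. The deposited table marks 7 of its genes as having too many fragments, and these were left out.

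Ratios of GW3965 to DMSO were taken on a log2 scale after 1 FPKM was added to both values, and also as plain FPKM ratios. The minimum was 1 FPKM in either library and the size threshold 1.5-fold. Since each condition has a single library, nothing was tested, and authors' q-values of genes called were at most 0.0470. The members and lists were chosen with earlier results of these data known. Named were all members, up to 4 genes of each companion list with the largest ratios in size, the other perilipin, CIDE and patatin-like genes, Abca1 and Srebf1. Hilpda, the markers Alb, Ttr, Tat, Adipoq, Lep and Cfd and the neighbouring genes were chosen after their values were seen.

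Depth was derived from 2565 genes below 0.1 FPKM and above 0 in both libraries. Their most frequent ratio was 1.24, and after division by it 65.1% lay within 0.1% of ratios of whole numbers up to 10, against 1.01% after a move by 3%. The absolute scale came from 241 genes with 1 annotated transcript and a value in DMSO only, of which 137 agreed on it, with a mean fragment length of 155. Fragments of a member were estimated at its shortest consensus coding transcript, and their exact (Clopper-Pearson) intervals cover counting error only. Exon overlap, strand and shared 25-base words came from GENCODE M21 (GRCm38), matched by gene identifier. Starts in the table were taken as counted from 0. Alternatives were pseudocounts of 0.1 and 5, no minimum and a minimum of 5 FPKM, centring, equal sums, genes the authors tested, a 2-fold threshold and plain FPKM ratios. The steps were tested on simulated data. Scripts ran in Python 3.11.15 with matplotlib 3.10.9, scipy 1.17.1, pandas 2.3.3 and numpy 2.4.6.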

Additional observations from a re-analysis of the deposited data

How the results depend on the processing

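The plain FPKM ratio was added after the data were seen. No ratio past 1.5-fold turned its direction, and Plin5, at 0.00, lay between -0.01 and 0.01. Of the 10 members, 2 were at least 1.5-fold higher in the main setting and 1, G0s2, with a pseudocount of 5 FPKM or a minimum of 5 FPKM, because Pnpla3 is below 2 FPKM. At 2-fold on the scale with 1 FPKM added the count was 0. The count at least 1.5-fold lower was 0, and 1, Cidec, with plain FPKM ratios. Over the settings run, Pnpla3 lay between 0.24 and 1.91, G0s2 between 0.63 and 0.89, and Cidec between -0.68 and -0.05 (-0.55 with 0.1 FPKM added). The ratios of the other 7 members moved by less than 0.1. Among all genes, 120 higher and 157 lower became 194 and 320 with a pseudocount of 0.1, 56 and 56 with 5, 39 and 55 at 2-fold, and 594 and 941 with plain ratios over 14948 tested genes, and at a minimum of 5 FPKM 82 were lower. Pseudocounts act by construction on low genes. Of 156 values for the companion lists 6 moved, all of them counts of 2 genes or fewer. No paired analysis was possible because there is 1 library in each group. Depth limits Plin4, Plin5, Cidec and Pnpla3, whose estimated fragments are few.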
